A study of Arabidopsis thaliana with 27 samples.

Results

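The comparison described here set 3 rosette samples of the GO5 line that stayed at high CO2 for 8 h against 3 GO5 samples taken at 0 h, so that the CO2 supply did not change between the harvests. These are 6 of the 27 arrays of the series, chosen by genotype and harvest in the sample labels, and no measured value entered the choice. GO5 is an Arabidopsis thaliana line that carries glycolate oxidase, a peroxisomal enzyme by nature, in its chloroplasts, where the enzyme forms H2O2 from the glycolate of photorespiration. The promoter that drives the enzyme and the number of lines tested are not given in the sources used here. Wild type Col-0 (WT) and the catalase-deficient mutant cat2-2 (cat2) went through the same harvests, with 3 samples each, and supplied the same comparison in 2 other genotypes. All plants, controls included, grew in soil at 3000 ppm CO2 for 3 weeks under 75 µmol quanta per square metre and second, with 16 h of light at 22 °C and 8 h of darkness at 18 °C. A further set of 3 GO5 samples was moved to 380 ppm (ambient CO2) for the 8 h. Each sample was RNA of 2 whole rosettes and is named by the labels as a biological replicate. The clock time of the 0 h harvest is not in the labels.

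Leaf transcripts follow the day. The circadian clock runs through waves of transcription factors, with morning genes such as the REVEILLE family and evening genes such as GIGANTEA, and light and sugar signals are laid over it. Starch is built in the light and broken down at night, and the genes of both pathways, of cold protection and of flavonoid synthesis are known to oscillate. At high CO2 Rubisco takes up little oxygen, so that little glycolate is formed by photorespiration, the substrate from which glycolate oxidase makes H2O2.

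Of 22746 probe sets tested, 13513 could be paired with a single gene and 8730 with none, so that counts cover all probe sets and names only the former. Medians of the 6 GO5 arrays lay between 5.41 and 5.51 log2 signal, and correlations within the GO5 groups ran from 0.987 to 0.995. No catalase or glycolate oxidase gene was among the named probe sets, so the genotype was not checked on the engineered gene. Whether probe sets without a single paired gene detect these enzymes was not examined. Of the 7 measured photosystem and antenna genes used as leaf markers, LHCB4.1, LHCB4.2, PSAE-1, PSAN, PSBW and PSBY had mean signals from 11.71 to 12.77 in both GO5 groups, while LHCB4.3 was lower, at 8.36 and 6.24, and fell between harvests. Of the 2 measured root markers, the peroxidase AT5G17820 was near background at 2.60 and 2.59, and PYK10 was bright in both groups, at 10.41 and 11.26. The part of other organs in the results was not tested. Where a group lies near background, a fitted difference or fold may understate the change, and the order of such genes is not resolved. For GAPDH, a control transcript probed at both ends to judge RNA quality, the 3′ signal exceeded the 5′ signal by 1.49 ± 0.08 log2 (SD, n = 3) at 0 h and 1.83 ± 0.07 after 8 h (exact two-sided permutation p = 0.1, the smallest that 3 against 3 arrays allow). For actin the same excess rose by 0.19 (exact permutation p = 0.2). The part of RNA quality in the results was not tested beyond refitting with GAPDH as a covariate, which called 1419 probe sets higher and 1295 lower.

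Over the 8 h, 3155 probe sets (13.9% of those tested) differed between the GO5 harvests at an adjusted p under 0.05 (limma, Benjamini-Hochberg), called changed below. Of these 1592 rose (7.00%) and 1563 fell (6.87%). Changes of 2-fold or more were reached by 640 of the rising and 608 of the falling probe sets, changes of 4-fold by 169 and 141, and changes of 16-fold by 21 and 23. The median size of a called change was 0.84 log2. In 3129 of the 3155 the 3 values at 0 h did not overlap the 3 at 8 h, against 36.6% of all probe sets tested (18.0% higher and 18.6% lower). When each array was centred on its median, 1275 rose and 1884 fell, because the centring shifted the median difference over all probe sets from -0.02 to -0.08 log2. Leaving out the third 0 h array, in which several of the genes below stood apart, left 1267 rising and 1211 falling. The deviations of that sample from its group mean correlated across probe sets with those of the third 0 h samples of WT (r = 0.786) and cat2 (r = 0.778), and the labels do not say what samples of 1 number share. In whole rosettes a change in the share of a cell type and a change in RNA per cell cannot be told apart.

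The largest fitted increase among named genes was that of AT1G56300, a J-domain co-chaperone family member. Its log2 signal was 3.39, 2.96 and 3.53 in the 0 h samples and 9.65, 9.40 and 9.47 after 8 h. All late samples lay far above all early ones, and the difference was 6.21 ± 0.16 log2 (SE of the fit, n = 3 per group), or 74.0-fold, with an adjusted p of 4.52e-17. AT5G62360, of the family of pectin methylesterase and invertase inhibitors, went from 3.86, 4.02 and 4.66 to 10.10, 10.03 and 9.32, a 49.8-fold increase (5.64 ± 0.32, adjusted p = 9.33e-11). AT4G16146 went from 3.36, 2.72 and 3.52 to 9.09, 8.85 and 8.20 (5.52 ± 0.33, adjusted p = 1.58e-10). In both genes the third late sample was the lowest of its group and still above every early value. AT3G62550, a universal stress protein-like gene, rose from 5.71, 5.97 and 6.68 to 11.21, 11.21 and 10.74 (4.93 ± 0.26). AT2G39920, of the haloacid dehalogenase phosphatases, started near background at 2.42, 2.25 and 2.50 and ended at 6.94, 6.84 and 6.89 (4.50 ± 0.12). These samples hardly differed within a harvest. AT2G39920 and AT1G56300 had the same adjusted p because the Benjamini-Hochberg step tied their unadjusted limma p of 2.84e-21 and 3.97e-21.

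Of the rest of the 12 largest increases among named genes, several varied more between samples. AT1G07050, which encodes a CCT-motif protein of the type found in flowering-time and clock regulators, reached 8.98, 8.82 and 6.41 from 2.59, 3.11 and 3.95 (4.86 ± 0.68, adjusted p = 2.76e-05). CCL, a gene known to cycle with the clock, rose from 8.07, 6.98 and 6.64 to 12.06, 12.21 and 11.53 (4.70 ± 0.42). AT3G47160, a RING finger gene, rose from 5.46, 4.78 and 4.28 to 9.04, 9.05 and 8.92 (4.16 ± 0.39). None of the 3 genes overlapped between harvests, and in the last the late samples lay within a narrow band while the early ones were spread. The low-temperature and salt responsive gene AT4G30650 completed this group outside the lists below (4.23 ± 0.32, adjusted p = 5.09e-09). One probe set with no paired gene, 249850_at, exceeded all named genes at 6.46 ± 0.65.

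**Figure D1:**
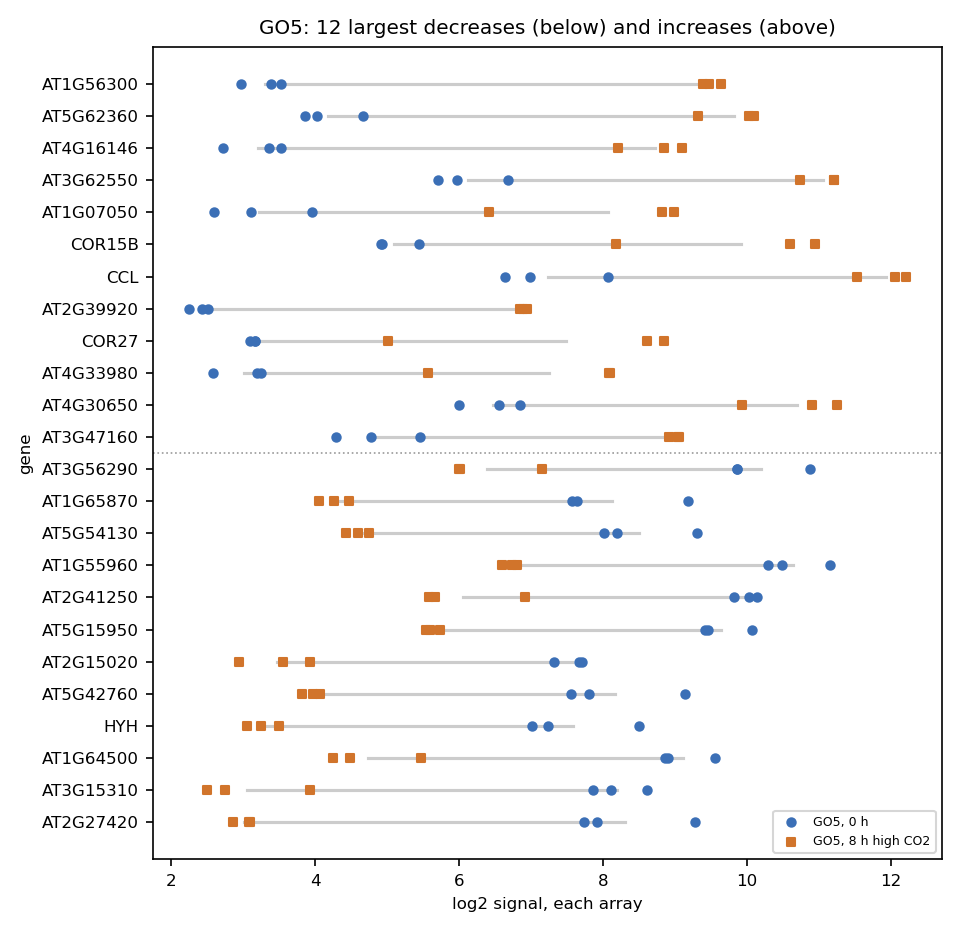
Log2 signal of every GO5 array for the 12 named genes with the largest increases and the 12 with the largest decreases; circles are the 3 samples at 0 h, squares the 3 samples after 8 h at high CO2, and grey lines join the group means. No gene overlaps between harvests, which the choice of genes required; the third late sample lies apart for COR27 at 5.01 and AT4G33980 at 5.57.

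Among decreases, AT2G27420, a papain-like cysteine protease gene, had the largest fitted decrease of the named genes. Its values were 7.74, 7.92 and 9.28 at 0 h and 3.09, 2.85 and 3.08 after 8 h (-5.30 ± 0.64, adjusted p = 4.17e-06). The late samples lay together near background, so that this value may understate the decrease, and the third early sample was the highest. AT3G15310 fell from 8.11, 7.86 and 8.61 to 2.74, 2.50 and 3.93 (-5.13 ± 0.57). AT1G64500, a glutaredoxin family gene, fell from 8.90, 8.87 and 9.56 to 4.24, 4.48 and 5.47 (-4.38 ± 0.68). In these 2 genes the third sample was the highest of its harvest both early and late, without overlap between the harvests. AT5G15950, which encodes an S-adenosylmethionine decarboxylase of polyamine synthesis, fell from 9.46, 9.41 and 10.06 to 5.54, 5.60 and 5.73 (-4.02 ± 0.23, adjusted p = 9.33e-11). AT1G55960, a START-domain lipid-binding family gene, fell from 10.29, 10.49 and 11.15 to 6.74, 6.59 and 6.80 (-3.93 ± 0.51). AT2G41250, another haloacid dehalogenase-like hydrolase gene, fell from 10.03, 10.14 and 9.82 to 5.59, 5.67 and 6.91 (-3.94 ± 0.66). Here the third late sample kept the highest late level and the early samples stood close together.

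The remaining large decreases were those of AT5G42760, a methyltransferase family gene (-4.22 ± 0.55), AT2G15020 (-4.09 ± 0.77), AT5G54130 (-3.91 ± 0.45), the dirigent-like gene AT1G65870 (-3.86 ± 0.57) and AT3G56290 (-3.81 ± 0.52). A second probe set of AT5G54130 gave -2.89 ± 0.46, the same direction with a smaller size. Of probe sets with no paired gene, 261569_at fell most, from 10.74, 10.77 and 11.45 to 3.51, 3.57 and 4.23 (-7.21 ± 0.43), and 266719_at changed by -6.37 ± 1.05. In AT5G42760, AT1G65870, AT5G54130 and AT3G56290 the third 0 h sample was the highest of the early samples, by more than 1 log2 unit.

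Lists of genes were then read by role, with 113 of 526 listed genes measured and at least 1 member measured in 22 of 25 lists. The background for these counts, taken over 1 probe set for each of 13286 named genes, was 6.53% rising and 5.83% falling, with a median difference of -0.02 log2. Of the listed genes 17 rose and 22 fell. Since most members of most lists were not measured, a count describes only the members named.

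All 3 measured evening-phased clock genes rose, with a median of 4.24 log2. GI (GIGANTEA), which delivers timing information from the clock to flowering and to protein turnover, had 4.37, 4.49 and 5.77 at 0 h and 8.62, 8.35 and 8.11 after 8 h (3.49 ± 0.38, 11.2-fold, adjusted p = 1.04e-06). The late samples were all above the early ones, and the third early sample was the highest of its group. COR27 and AT4G33980 (COR28), a pair of cold-regulated evening genes that act on clock and light signalling, rose with a wider spread. COR27 stood at 3.17, 3.10 and 3.16 early and at 8.62, 8.84 and 5.01 late (4.35 ± 1.06, adjusted p = 0.00654). AT4G33980 stood at 2.58, 3.24 and 3.19 early and at 8.09, 8.09 and 5.57 late (4.24 ± 0.77). The third late sample was thus more than 2 log2 units below its group mates in both genes and still above all early samples. This was not particular to GO5. The third late sample was also the lowest in WT and cat2, at 5.23 and 4.69 for COR27 and at 5.45 and 5.62 for AT4G33980. Without late replicate 2 COR27 no longer passed (3.67, adjusted p = 0.0503), and without late replicate 3 its difference was 5.59. Of 3 morning-phased genes measured, 2 fell and the median was -0.74. The DOF factor gene AT1G69570 (CDF5), which represses flowering, fell from 7.19, 7.41 and 6.91 to 4.97, 4.76 and 5.49 (-2.10 ± 0.23, adjusted p = 1.04e-06). AT4G01280 (RVE5), a MYB-like clock factor, went from 5.99, 6.06 and 6.46 to 5.36, 5.17 and 5.76 (-0.74 ± 0.21, adjusted p = 0.02). That smaller change was lost with the GAPDH covariate (-0.56, adjusted p = 0.0879), without early replicate 3 (-0.60, adjusted p = 0.116) and without late replicate 1 (-0.71) or 2 (-0.61). AT5G52660 (RVE6) did not pass at -0.19 ± 0.16.

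Cold and drought protection genes, which dehydration and abscisic acid also induce, rose in 4 of 4 measured members with a median of 2.46 log2. COR15B, a chloroplast protein that stabilises membranes during freezing, stood at 4.91, 5.45 and 4.93 early and at 10.95, 10.60 and 8.19 late (4.82 ± 0.61, 28.2-fold, adjusted p = 8.19e-06). Its close relative COR15A went from 6.46, 7.41 and 6.05 to 10.32, 9.77 and 7.86 (2.68 ± 0.61, adjusted p = 0.00368). Both had their lowest late value in the third sample, and neither overlapped between harvests. The dehydrins LTI30 and COR47 rose by 2.24 ± 0.27 and 1.41 ± 0.31. LTI30 had 3.47, 3.75 and 3.69 early against 6.15, 6.02 and 5.45 late, and COR47 had 9.04, 9.22 and 9.20 against 10.86, 10.93 and 9.91. Related genes such as COR15A and COR15B can share signal on an array, which was not tested.

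Flavonoid and anthocyanin synthesis was the list with most called decreases beside photorespiration: 5 of 8 measured members fell, none rose, and the median was -1.40 log2. HYH, a bZIP factor of light signalling related to HY5, stood at 7.23, 7.01 and 8.50 early and at 3.05, 3.49 and 3.25 late (-4.32 ± 0.47, adjusted p = 1.04e-06). CHIL, a chalcone isomerase-like protein, fell from 6.98, 7.14 and 8.71 to 4.37, 4.45 and 4.63 (-3.12 ± 0.51, adjusted p = 0.000163). In both, every late sample was low and the third early sample was the highest by more than 1 log2 unit. The flavonol glycosyltransferases UGT78D2 and UGT78D1 fell by 2.27 and by 1.17 on the log2 scale. DFR (dihydroflavonol reductase), the entry to anthocyanins, fell from 4.52, 5.18 and 5.06 to late values between 3.20 and 3.36 (-1.63 ± 0.35, adjusted p = 0.00245). The other 3 members, AT4G14090 (-0.88 ± 0.35), UF3GT (-0.58 ± 0.27) and AT5MAT (-0.09 ± 0.15), did not pass. Among 5 cell wall expansion genes XTH19, a wall-loosening xyloglucan endotransglucosylase, fell from 6.52, 6.62 and 7.21 to 3.29, 3.41 and 4.09 (-3.18 ± 0.34, adjusted p = 9.02e-07). XTH33 followed at -1.25 ± 0.21, while the expansins EXPA4 (-0.46 ± 0.32) and EXPA8 (0.26 ± 0.71) and XTH18 (0.04 ± 0.49) did not pass.

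Carbohydrate genes were split by pathway. Both measured genes of starch degradation rose: PWD (phosphoglucan water dikinase), which phosphorylates the granule surface, from 6.99, 7.04 and 8.56 to 10.03, 9.90 and 9.15 (2.16 ± 0.48, adjusted p = 0.00309), and DPE1, which disproportionates short glucans, from 5.24, 5.45 and 6.99 to 8.69, 8.64 and 8.49 (2.71 ± 0.39, adjusted p = 3.29e-05). The third early sample was the highest for both genes and lay more than 1 log2 unit above its group mates. None of the 3 starch synthesis genes passed, with differences from -0.12 to 0.26. ATSPS4F, a sucrose-phosphate synthase, was the 1 member of 5 sucrose and sugar transport genes that changed, from 9.39, 9.58 and 10.14 to 7.62, 7.62 and 6.57 (-2.43 ± 0.52, adjusted p = 0.00211). Of 5 sugar-starvation genes, 1 rose: AT3G15450, from 9.18, 8.35 and 8.05 to 10.37, 10.57 and 10.36 (1.91 ± 0.56, adjusted p = 0.0235). Its late samples were level and its early ones spread, and the call was lost on leaving out early replicate 2 or 3 or any late sample (1.67 to 1.94). The list's median was 0.83, and 0.48 without early replicate 3. MCCA (0.86 ± 0.30), AKINBETA1 (0.83 ± 0.36), IVD (0.50 ± 0.23) and BZIP53 (0.43 ± 0.15) did not pass. Each was higher in every late sample than in any early one, as were 18.0% of all probe sets tested.

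The measured genes of photosynthetic carbon metabolism fell by small amounts. All 3 measured Calvin-Benson genes fell: SBPASE (sedoheptulose-bisphosphatase) from 11.89, 11.92 and 11.95 to 10.98, 11.00 and 10.83 (-0.98 ± 0.17, adjusted p = 0.000295), PRK (phosphoribulokinase) by 0.55 and RCA (Rubisco activase) by 0.51 on the log2 scale. In photorespiration, the pathway that recycles glycolate, 5 of 6 measured members fell and the median was -0.56. HPR (hydroxypyruvate reductase of peroxisomes) went from 12.34, 12.40 and 12.36 to 11.60, 11.56 and 11.34 (-0.87 ± 0.18, adjusted p = 0.00154). LrgB, the chloroplast carrier of glycolate and glycerate, went from 10.16, 10.24 and 10.08 to 9.56, 9.36 and 9.30 (-0.75 ± 0.14, adjusted p = 0.000862). Replicates of these genes stood close together, so that changes under 2-fold passed. AT1G11860 and AT1G32470, the T and H proteins of glycine decarboxylase, changed by -0.67 ± 0.15 and -0.45 ± 0.12, and AT1G80380, glycerate kinase, by -0.45 ± 0.10. The cytosolic hydroxypyruvate reductase AT1G79870 did not pass (0.28 ± 0.14). Some of these calls depended on 1 sample: PRK was lost without late replicate 3 (-0.45, adjusted p = 0.0854), RCA without late replicate 2 (-0.46, adjusted p = 0.0544), and AT1G32470 without early replicate 3 (-0.39) or late replicate 1 (-0.43).

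Pigment and antenna genes mostly did not pass. Of 9 chlorophyll and haem synthesis genes, 1 rose: PORB, a light-dependent protochlorophyllide reductase, from 7.66, 7.80 and 9.55 to 11.40, 11.07 and 11.46 (2.97 ± 0.50, 7.84-fold, adjusted p = 0.000237). The other 8 ranged from -0.42 to 0.30. Of 7 light-harvesting and photosystem genes, 1 fell: LHCB4.3, a minor antenna isoform, from 8.05, 7.83 and 9.21 to 5.95, 6.72 and 6.06 (-2.12 ± 0.37, adjusted p = 0.000373). Its relatives LHCB4.1 (0.17 ± 0.12) and LHCB4.2 (-0.15 ± 0.34) did not pass.

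**Figure D2:**
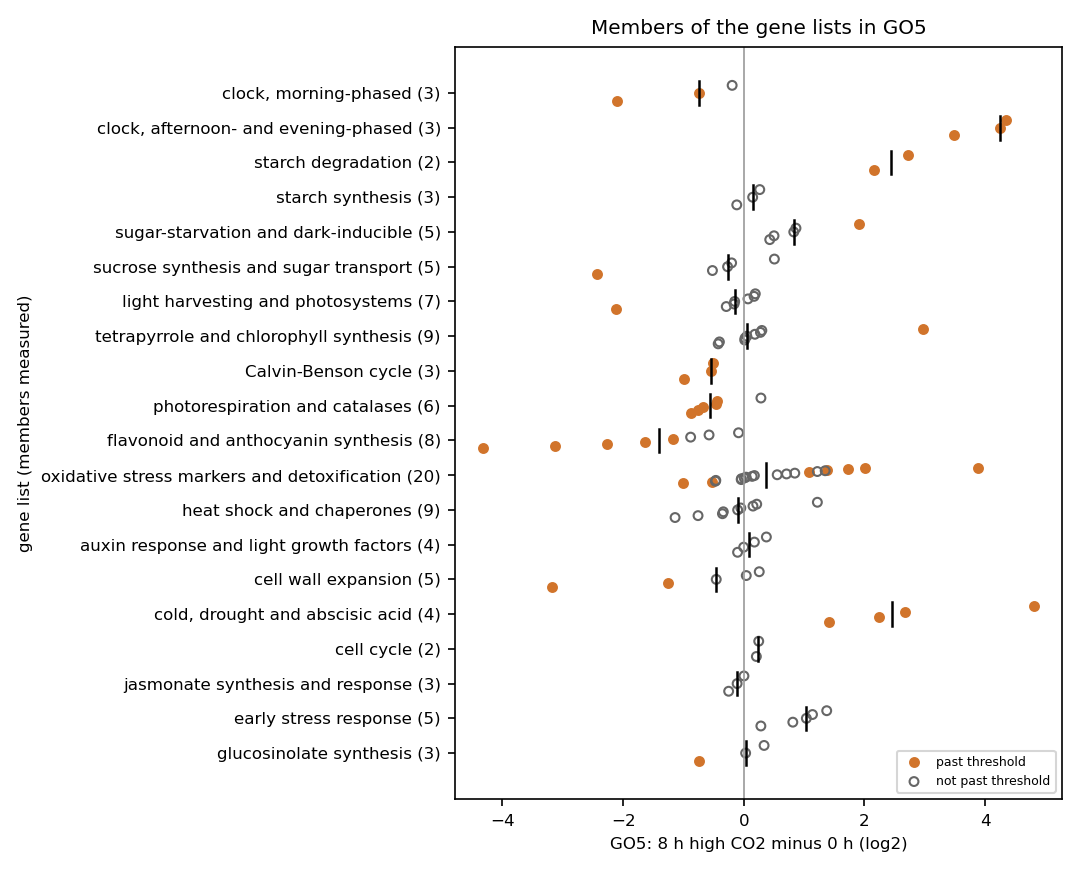
Difference between 8 h at high CO2 and 0 h in GO5 (log2) for each measured member of the gene lists, with the number measured in parentheses; filled points passed the threshold, open points did not, and the black bar is the list's median. Evening clock genes and cold genes lie to the right, with medians of 4.24 and 2.46, and flavonoid genes to the left, with a median of -1.40.

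The same comparison in WT and cat2 uses other arrays, so that the 3 can be set side by side. They are not fully independent, since samples of the same number shared deviations from their group means within a harvest. At 0 h those of GO5 correlated with those of cat2 at 0.69, 0.60 and 0.78. With WT the correlation was 0.79 for replicate 3 but 0.13 for replicate 1. In WT 3042 probe sets (13.4%) changed and in cat2 2852 (12.5%). Of the 3155 called in GO5, 2311 were also called in WT, which is 73.2% of the GO5 and 76.0% of the WT calls, and all 2311 in the same direction. With cat2 2056 were shared, 65.2% of the GO5 and 72.1% of the cat2 calls, of which 2055 had the same direction. All 3 genotypes called 1889. Across the 22746 probe sets the differences in GO5 correlated with those in WT at r = 0.926 and with those in cat2 at r = 0.846, a description across probe sets, which are not independent. For 2439 of the 3155 (77.3%) the 95% confidence interval of the GO5 minus WT difference lay within 2-fold either way, and for 2294 (72.7%) that of GO5 minus cat2 did. For the remainder the arrays did not narrow the difference to that range.

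The difference itself was tested as an interaction. No probe set passed for GO5 minus WT (0.00%), with 345 at an unadjusted p under 0.05 (1.52%) and a smallest adjusted p of 0.472. No probe set passed for GO5 minus cat2 (0.00%), with 702 at an unadjusted p under 0.05 (3.09%). These counts of 0 held in limma under every alternative except that leaving out late GO5 replicate 2 gave 3 and 4 calls, described with the stress genes below. The genes with the largest changes had like fitted values in the other genotypes. AT1G56300 changed by 6.41 in WT and 6.12 in cat2, and the interval of GO5 minus WT ran from -0.67 to 0.28. HYH changed by -4.09 in WT and -4.42 in cat2, with an interval of GO5 minus WT from -1.61 to 1.14. GI rose by 3.70 and 3.53, with an interval from -1.33 to 0.90. COR27 rose by 4.56 in WT and 4.33 in cat2, with an interval from -3.32 to 2.90. Its late replicate 3 was the lowest in each genotype, at 5.01 in GO5, 5.23 in WT and 4.69 in cat2. The fit took no account of replicate numbers, and in that fit the interval for COR27 was too wide to compare the genotypes. Of the 24 named genes and 3 unnamed probe sets above, the fitted GO5 minus WT differences lay between -0.51 and 0.40.

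**Figure D3:**
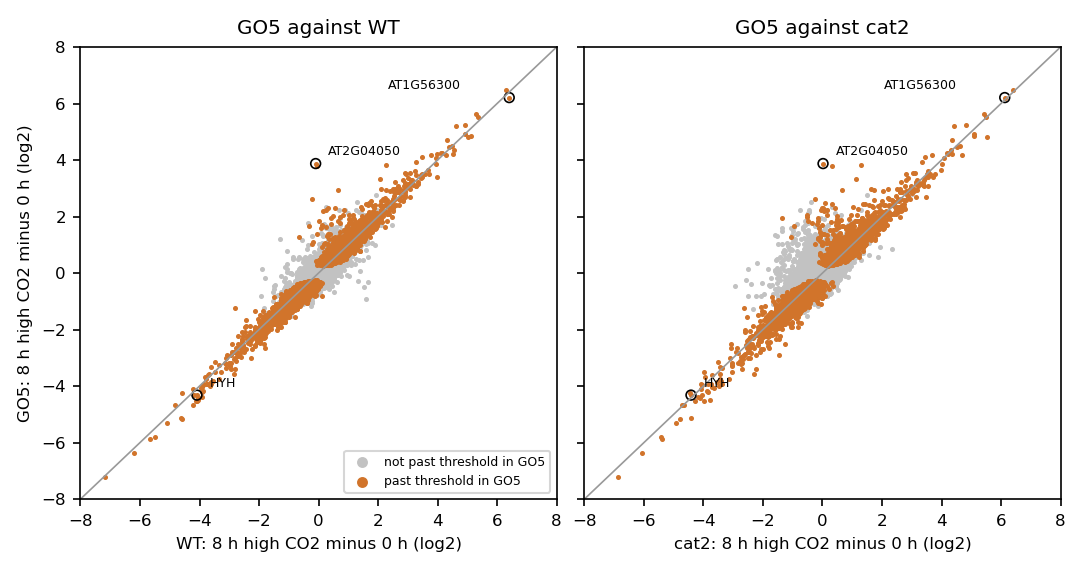
Change over 8 h at high CO2 in GO5 (vertical axis, log2) against that in WT (left) and cat2 (right) for the 22746 probe sets; orange points passed the threshold in GO5, grey points did not, and the line marks equal change. Points follow the line in both panels (r = 0.926 and 0.846), and AT2G04050 lies at 3.87 in GO5 against -0.10 in WT and 0.02 in cat2.

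Genes that H2O2 and other oxidants are known to induce included several with a rise in GO5 and little difference in WT and cat2, although no difference between genotypes passed the test over all arrays. Of 20 oxidative stress and detoxification genes measured, 5 rose and 2 fell in GO5, with a median of 0.36 log2 (0.85 when dim probe sets were left out). In WT 1 rose and 2 fell, against 6.88% and 6.50% of all probe sets, and in cat2 1 rose and 1 fell, against 6.62% and 5.92%. This list was written with earlier results of these arrays known and is no independent evidence of direction. AT2G04050, a MATE-type efflux carrier of the detoxification family, had 2.93, 2.92 and 2.93 at 0 h and 6.90, 4.56 and 8.95 after 8 h (3.87 ± 0.58, adjusted p = 5.9e-05). All 3 late samples were above all early ones, but they spanned more than 4 log2 units, with replicate 2 the lowest and replicate 3 the highest. On the 12 WT and cat2 arrays of these harvests the gene stayed between 2.73 and 3.04, near background, as in GO5 at 0 h, so that the fitted rise and the differences between genotypes may be understated. The GO5 minus WT difference was 3.97 ± 0.82 (interval 2.28 to 5.67, unadjusted p = 7.96e-05), which did not pass (adjusted p = 0.905). The GO5 minus cat2 difference was 3.86 ± 0.82 (unadjusted p = 0.000112, adjusted p = 0.9999). Without late GO5 replicate 2 these became 5.09 (adjusted p = 2.24e-05) and 4.98 (adjusted p = 3.32e-05), both past the threshold. Over all alternatives the adjusted p of the GO5 minus WT difference ran from 2.24e-05 to 0.999993.

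The neighbouring family member AT2G04070 stood at 4.17, 3.75 and 4.36 early and at 5.84, 5.34 and 6.31 late (1.73 ± 0.35, adjusted p = 0.00134), against 0.40 in WT and -0.17 in cat2. Probe sets of these related carriers can share signal, which was not tested. AT2G21640, a marker of the oxidative stress response, went from 5.53, 5.32 and 5.64 to 7.78, 6.14 and 8.58 (2.00 ± 0.40, adjusted p = 0.00135), against 0.47 in WT and 0.48 in cat2. NDB4, an alternative NADH dehydrogenase of mitochondria, went from 3.83, 3.76 and 3.31 to 5.19, 4.02 and 5.85 (1.39 ± 0.36, adjusted p = 0.00996), against -0.06 in both other genotypes. In all of these replicate 2 was the lowest and replicate 3 the highest late sample, and no late sample overlapped the early ones. The NDB4 call was lost without early replicate 3 (1.23), without late replicate 3 (0.97, adjusted p = 0.0834) and with only the 6 GO5 arrays in the fit (adjusted p = 0.0663). None of these 3 genes passed for a difference between genotypes. UGT73B1, a glycosyltransferase of detoxification, behaved otherwise: it rose by 1.08 ± 0.18 in GO5, 0.92 in WT and 1.05 in cat2. GSTU16 fell by 1.01 and GSTU28 by 0.52 on the log2 scale in GO5, with -1.09 and -0.57 in WT. GSTU28 was lost with the GAPDH covariate, with the trend and robust variances, and without early replicate 1 or 3 or late replicate 1 or 2.

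Further probe sets were chosen after their values were seen. Of these, 263231_at, 266752_at and AT2G18190 were taken because they passed for a genotype difference when an array was left out. Their passing and their layout are thus no separate evidence. 263231_at went from 2.78, 2.66 and 3.33 to 7.14, 4.21 and 8.76 (3.78 ± 0.71), against -0.06 in WT and 0.31 in cat2. Its late GO5 samples had an SD of 2.31, which that pooled SE does not measure. 266752_at went from 3.46, 3.90 and 3.69 to 7.00, 5.22 and 7.62 (2.93 ± 0.41), against 0.64 and 0.65. AT2G18190, an AAA-type ATPase gene, went from 2.98, 3.00 and 2.92 to 4.97, 3.40 and 6.05 (1.84 ± 0.41), against 0.01 and -0.16. AT2G41730 rose by 2.31 ± 0.48 and AT3G45730 by 1.68 ± 0.47. Replicate 2 was the lowest late sample in each. The fit by which those named first were chosen left out late GO5 replicate 2. There the first 2 passed with AT2G04050 for GO5 minus WT, and those and AT2G18190 passed for GO5 minus cat2. AT2G18190 itself was lost with only the 6 GO5 arrays in the fit (adjusted p = 0.0721). AT3G45730 was lost in that fit too (adjusted p = 0.0597), and without early replicate 3 (1.23, adjusted p = 0.133), late replicate 1 (1.65) or late replicate 3 (1.28, adjusted p = 0.115). On the late GO5 arrays the GAPDH 3′ minus 5′ differences were 1.76, 1.85 and 1.89, with replicate 2 in the middle, and its part in these results was not tested.

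**Figure D4:**
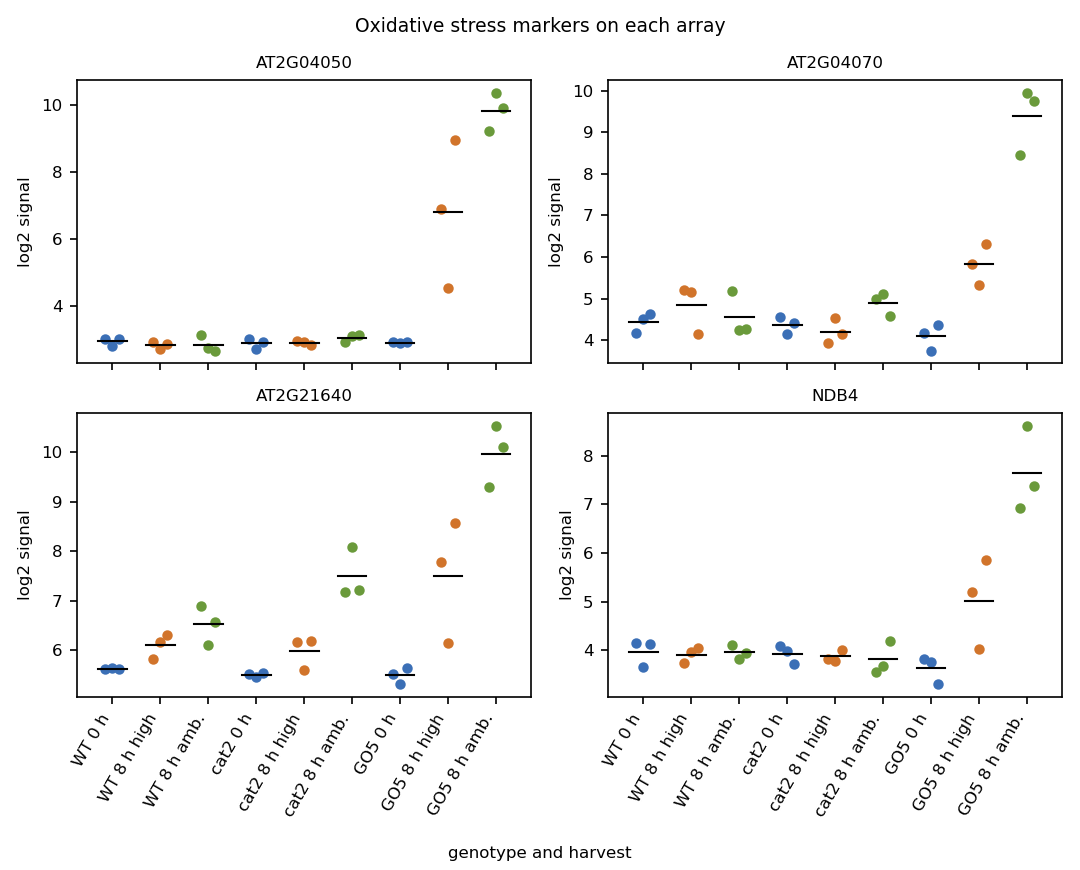
Log2 signal on each of the 27 arrays for 4 oxidative stress genes, by genotype and harvest (blue 0 h, orange 8 h at high CO2, green 8 h at ambient CO2); black bars are means of 3 samples. For AT2G04050 the late high CO2 samples of GO5 lie at 4.56, 6.90 and 8.95 and all WT and cat2 samples near 3.

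The GO5 samples moved to ambient CO2 were compared with the same 0 h arrays, so that their values stand only side by side with those above. GI averaged 8.85 at ambient CO2, with a difference from 0 h of 3.97 against 3.49 at high CO2, and AT1G56300 differed by 6.37 against 6.21. PORB differed by 2.25 against 2.97. Among the flavonoid and cell wall genes that fell at high CO2, some differed less from 0 h at ambient CO2 and some did not. HYH had 6.64, 7.41 and 7.57 at ambient CO2, a difference from 0 h of -0.37 against -4.32. XTH19 had 6.38, 5.82 and 6.60, a difference of -0.52 against -3.18. The decreases at high CO2 were thus not seen at ambient CO2 in these 2 genes, whose ambient samples lay above every late high CO2 sample. UGT78D2 differed by -0.54 at ambient against -2.27 at high CO2 and CHIL by -1.31 against -3.12. UGT78D1 was lower in both (-0.95 against -1.17), as was XTH33 (-1.74 against -1.25). DFR was 6.13, 6.42 and 5.09 at ambient CO2, 0.96 above 0 h against -1.63. LTI30 rose by 6.82 at ambient CO2 against 2.24 at high CO2, and COR15A by 5.09 against 2.68. For AT2G04050 the ambient samples were 9.21, 10.35 and 9.90, all above the highest late sample at high CO2.

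**Figure D5:**
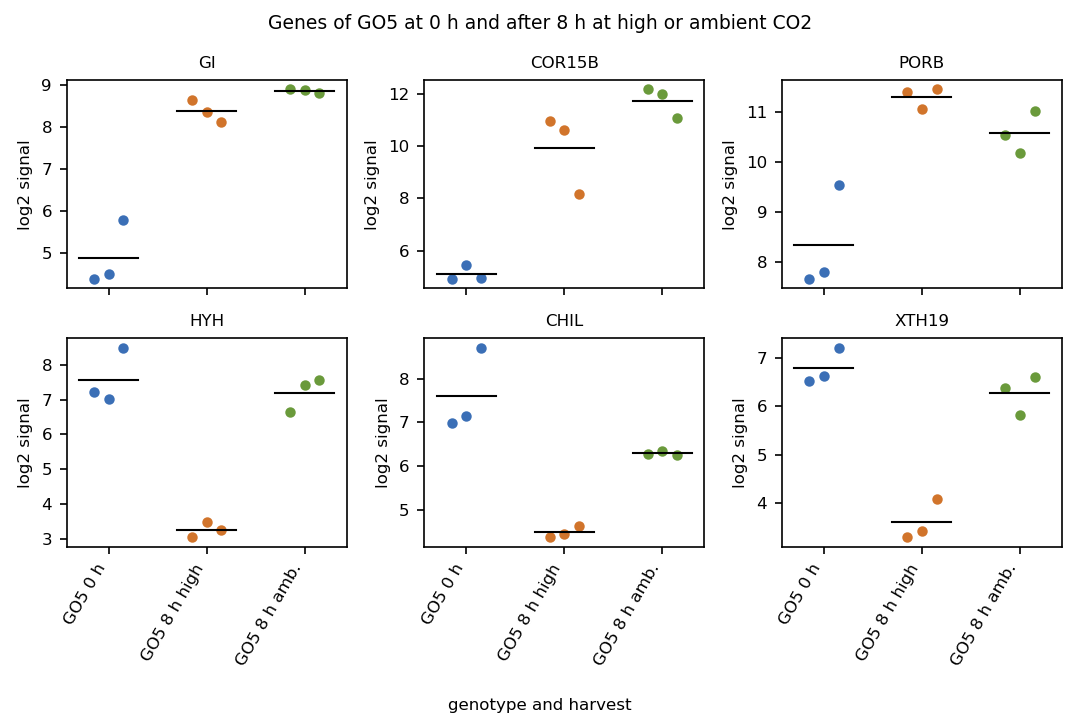
Log2 signal of GI, COR15B, PORB, HYH, CHIL and XTH19 on each GO5 array at 0 h (blue), after 8 h at high CO2 (orange) and after 8 h at ambient CO2 (green); bars are means of 3 samples and each panel has its own vertical axis. HYH and XTH19 are low in the high CO2 samples alone, while GI is high at 8 h in both.

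The other lists held few or no changes. None of 9 heat shock and chaperone genes passed, with a median of -0.10 and values from -1.14 (Hop3) to 1.22 (AT5G51440, which was -1.30 in WT). None of 5 early stress genes passed either, although their median was 1.04, from CML37 at 0.28 ± 0.50 to WRKY53 at 1.37 ± 0.61. Auxin and light growth genes ranged from -0.10 to 0.37, jasmonate genes from -0.25 to 0.00 and cell cycle genes from 0.21 to 0.25, with none called of 4, 3 and 2. Of 3 glucosinolate genes AT2G31790 fell (-0.74 ± 0.20, adjusted p = 0.0161), a call lost without early replicate 3 (-0.71) or late replicate 2 (-0.60). Markers of other cells gave 1 call: PYK10, an abundant beta-glucosidase of roots, rose from 10.49, 10.28 and 10.46 to 11.37, 11.15 and 11.28 (0.85 ± 0.26, adjusted p = 0.0313), and lost it whichever of the 6 samples was left out (0.79 to 0.91). The guard cell and epidermis markers FMA (-0.23 ± 0.17) and AT1G22690 (-0.76 ± 0.40) did not pass.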

How the data were processed

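Whole-rosette RNA of 27 samples (3 genotypes by 3 conditions, 3 biological replicates each) was measured on Affymetrix-type arrays. The values, as the authors deposited them, are log2 signals with 1 value for each probe set of an array; the submitters' processing notes name RMA, GCRMA and affy in R 2.15.0, so which of these made the values is not settled. Values run from 1.61 to 13.59, none is missing, and 21.5% of those on the 6 GO5 arrays lie between 2 and 3, near background. No count depth applies, and the number of arrays limits precision.

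Groups came from sample titles. After leaving out 64 of 22810 probe sets as controls, limma 3.58.1 in R 4.3.3 was fitted to all 27 arrays with 9 group means and empirical Bayes variances. Two-sided p-values of a contrast were adjusted over all its probe sets (Benjamini-Hochberg), with 0.05 as threshold. Differences between genotypes were tested as differences of contrasts. Genes were named from the annotation table for the platform and matched by locus for 13436 of 13513 single-gene probe sets. A gene was represented by its brightest probe set in lists.

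Named genes were the 12 largest increases and decreases among called single-gene probe sets without overlap between groups, up to 6 called members of each list, all measured members of lists of 8 or fewer, and up to 2 unpaired probe sets per direction that exceeded these. Genes outside that rule are said to be chosen after their values were seen. The members and gene lists were chosen with earlier results of these data known. Replicate numbers did not pair the GO5 harvests (correlations of deviations -0.27, -0.29 and -0.06). Across genotypes at the same harvest they did pair GO5 with cat2, with correlations of 0.69, 0.60 and 0.78 at 0 h and 0.43, 0.48 and 0.55 at 8 h.

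Alternatives were quantile normalization, median centring, trend and robust variances, probe sets under percentile 40 left out, only the arrays compared, the replicate block and each array left out.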

Additional observations from a re-analysis of the deposited data

How the results depend on the processing

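The number of calls in GO5 (3155) was 3212 after quantile normalization, 3159 after median centring, 3017 with trend and robust variances, 3118 without dim probe sets, 4030 with only the 6 arrays compared and 2245 to 2661 with each array left out. Fits chosen after seeing the data gave 3975 without the 3 WT ambient arrays, whose spread was the widest, and 2714 with the GAPDH covariate. The replicate number as a block gave 3641 calls, with none of the 39 called list members lost. A replicate block within each harvest over the genotypes, also chosen after seeing the data, gave 4545 calls, 3128 of them shared with the 3155, and 0 calls for GO5 minus cat2. It lost none of the 24 named genes or called list members, while some members not called before, AKINBETA1, CHLM and PSBY among them, passed. WT calls (3042) fell to 1793 with the GAPDH covariate and ranged from 2114 to 2779 with each array left out, and cat2 calls (2852) from 2008 to 2381; the cause was not tested. Calls for GO5 minus WT ranged from 0 to 3 and for GO5 minus cat2 from 0 to 4 with each array left out, the 3 and 4 being those without late GO5 replicate 2. Of the 24 named genes 23 were called in all 15 alternatives, the exception being COR27, and of the 39 list members 29 were called whichever array was left out. No named or listed gene reversed. The count of promoters with clock motifs and its alternative window were not run, since no promoter sequence was used here. Signals near background limit what can be seen for dim genes.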

Other observations

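Other genes of sugar metabolism and light signalling were among the strong changes; these were chosen after their values were seen. SWEET2, a sugar carrier of the vacuole, stood at 8.83, 8.97 and 9.08 at 0 h and at 5.52, 5.65 and 6.31 after 8 h (-3.13 ± 0.32, adjusted p = 4.9e-07). AFR, an F-box protein of phytochrome A signalling, went from 8.13, 8.57 and 9.01 to 5.19, 5.09 and 5.69 (-3.25 ± 0.36). PDC2, a pyruvate decarboxylase, rose from 5.60, 5.61 and 7.77 to 9.59, 9.37 and 9.32 (3.10 ± 0.52), and Fes1B, related to HSP70 exchange factors, from 4.65, 4.70 and 3.49 to 7.77, 7.48 and 7.68 (3.37 ± 0.32). All 4 changed in the same direction in WT, by -3.50, -3.35, 2.68 and 3.45. In PDC2 and Fes1B the third early sample stood apart from its group mates, above them in the former and below them in the latter.

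Some gene families with at least 20 measured members were read against the same background, 6.53% rising and 5.83% falling, also after their values were seen. Of 22 TBL genes, which acetylate wall polysaccharides, 6 fell and 1 rose, with TBL26 lowest at -2.91. Of 47 UGT glycosyltransferases 9 rose and 3 fell, with UGT85A5 highest at 1.91. Of 20 BGLU beta-glucosidases 6 rose and 3 fell, from -2.48 (BGLU47) to 2.86 (BGLU44).

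The smallest p of the GO5 minus WT difference belonged to 258359_s_at, which has no single paired gene. It stood at 12.15, 12.14 and 12.25 at 0 h and 12.20, 12.15 and 12.16 after 8 h in GO5 (-0.01 ± 0.12), against -0.92 in WT and -0.70 in cat2, and the difference of 0.91 ± 0.17 did not pass (adjusted p = 0.472). WT had 11.29, 11.27 and 11.29 at 0 h and 10.57, 10.13 and 10.39 after 8 h at high CO2. In cat2 the values were 11.18, 11.23 and 11.45, then 10.65, 10.75 and 10.34. Every GO5 sample thus lay above every WT and cat2 sample at both harvests, already at 0 h, and the cause was not tested. The gene or genes that this probe set detects were not identified here, so its values are not read as a day response of GO5. This probe set and EXO were also chosen after their values were seen. EXO, a gene of brassinosteroid-promoted growth, was 0.22 ± 0.25 in GO5, -1.14 in WT and -1.36 in cat2, without passing for a difference.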
